A study of Mus musculus with 4 samples.

Results

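The genes described here are 9 enzymes of nucleotide synthesis and salvage: Tyms, Rrm1, Rrm2, Tk1, Dut, Ada, Impdh2, Cad and Umps. They were taken by symbol from a table of 24421 genes, all 9 were in it, and all 9 passed the filter on low counts that 14140 genes passed. The data are RNA sequencing counts of LSK cells, bone marrow cells without lineage markers but with Kit and Sca-1 on their surface, a fraction that holds blood stem cells and early multipotent progenitors. The series has 2 control libraries (Ctrl), labelled wild type and taken from littermates, and 2 Zfp521 knockout libraries (KO), from mice labelled Zfp521-/-. No age, strain, sex or design of the knockout allele is given in the sources used here, and no Cre or cell type is named, so the labels do not limit the deletion to the sorted cells. The libraries are described as separate RNA preparations of pooled cells, with nothing on which animals went into each; the p-values therefore reflect only how far these libraries vary, and part of that may be technical.

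Cells make nucleotides from small precursors (de novo synthesis) or recover them from bases and nucleosides (salvage). Dividing cells must also turn ribonucleotides into deoxynucleotides for DNA, and several enzymes of that branch are made mainly in S phase, under E2F transcription factors. Proliferating blood progenitors depend on this supply, and inhibitors of several of these enzymes are used as drugs against leukaemia and as immunosuppressants. From textbook knowledge the 9 genes were divided into 5 S-phase members, which supply deoxynucleotides (Tyms, Rrm1, Rrm2, Tk1 and Dut), and 4 members that are less bound to S phase and are called constitutive here (Ada, Impdh2, Cad and Umps).

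Totals ran from 17787425 to 29863594 counts per library, and were lower in KO. The 9 genes together held 33521 and 24706 counts in Ctrl, and 15421 and 12230 in KO, so counting error was small for all of them but Ada. Zfp521 itself had 1561 and 1429 counts in Ctrl and 308 and 215 in KO, a log2 fold change of -2.19 (SE 0.23, edgeR adjusted p = 0.000491). Kit was at 617 and 708 CPM (reads of a gene scaled to library size) in Ctrl and 697 and 702 CPM in KO, and Ly6a, which encodes Sca-1, at 47.7 and 36.9 CPM in Ctrl and 37.3 and 67.0 CPM in KO, so both markers of the sort were present. Ctrl replicate 2 had 606 counts of Xist, which is made from an inactive X chromosome, and the other libraries had between 160613 and 230977, so Ctrl held 1 male-like and 1 female-like library while both KO libraries were female-like. None of the 9 genes lies on a sex chromosome.

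Promoter sequence is shown for 4 members that stand for both groups and hold the words searched for, because the 9 genes had lower values in KO together. The windows are the 120 bases before the RefSeq start site (RefSeq, GRCm38.p6), 5′ to 3′ on the strand of the gene. Capitals mark CCAAT or CACGTG. In the GENCODE annotation Impdh2 starts earlier, at chr9:108560286, so its whole window lies inside that gene span. The last bases of the Rrm2 window also lie inside its GENCODE span, which starts at chr12:24708241. The positions are chr5:30073626-30073745 on the minus strand for Tyms, chr7:102441575-102441694 on the plus strand for Rrm1, chr12:24708134-24708253 on the plus strand for Rrm2 and chr9:108560316-108560435 on the plus strand for Impdh2.
Tyms: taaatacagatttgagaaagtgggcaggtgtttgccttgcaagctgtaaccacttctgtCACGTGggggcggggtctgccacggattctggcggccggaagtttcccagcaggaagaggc
Rrm1: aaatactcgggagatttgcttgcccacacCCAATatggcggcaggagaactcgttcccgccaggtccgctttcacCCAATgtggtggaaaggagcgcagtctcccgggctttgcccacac
Rrm2: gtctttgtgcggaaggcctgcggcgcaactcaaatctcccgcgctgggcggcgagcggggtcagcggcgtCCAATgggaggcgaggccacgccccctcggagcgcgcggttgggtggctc
Impdh2: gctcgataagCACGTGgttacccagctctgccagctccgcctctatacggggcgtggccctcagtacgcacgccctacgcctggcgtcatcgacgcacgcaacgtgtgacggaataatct

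In the full windows, from 250 bases before to 50 after the start, both strands were searched in all 9 genes. CCAAT, the box bound by NF-Y, was found in 4 of them (Rrm1, Rrm2, Ada and Impdh2), with 2 copies in Rrm1, against 37.4% of all 32851 promoter windows. CACGTG, the E-box bound by Myc and related factors, was found in 2 (Tyms and Impdh2), against 7.15% of all windows. The 4 E2F words TTTCCCGC, TTTCGCGC, TTTGCCGC and TTTGGCGC were found in none of the 9, against 2.26% of all windows, and TTTGAA, the core of the cell cycle CHR element, was found in Umps alone, against 17.9%. Among the 13398 windows of tested genes the shares were 37.4% for CCAAT, 9.64% for CACGTG, 3.72% for the E2F words and 12.2% for TTTGAA. A match is a description of letters and not a binding site, and a missing word says only that these letters were not in this window. At a share as low as that of the E2F words, no match in 9 windows was the likely outcome for any genes. The Dut window (chr2:125247265-125247564) lies inside the GENCODE span of Dut, which starts at chr2:125247190, so no sequence before that GENCODE start was searched.

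All 9 genes had lower mean levels in KO than in Ctrl, and for each of them both KO libraries lay below both Ctrl libraries. Of the 5 S-phase members, Tyms, Rrm1, Rrm2 and Dut fell and Tk1 did not pass the test; of the 4 constitutive members, Ada fell and Impdh2, Cad and Umps did not pass (edgeR quasi-likelihood test, Benjamini-Hochberg adjustment over all 14140 genes, threshold 0.05). The 5 genes called lower compare with 3.01% of all tested genes called lower, and 3.77% were called higher. The members were chosen with earlier results of these data known, so this comparison is a description and not a test. The share of all tested genes with both KO libraries below both Ctrl libraries was 27.6%, and 28.8% had both above. The log2 fold changes of the 9 ran from -1.34 to -0.48 with a median of -0.72, while the median of all tested genes was 0.02.

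**Figure D1:**
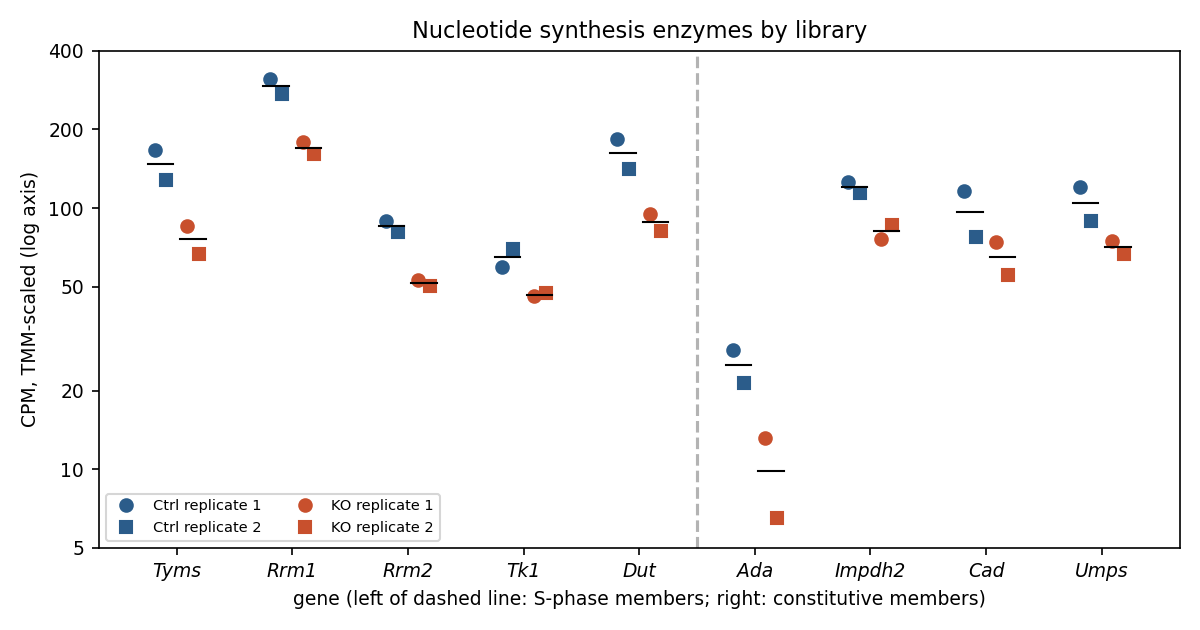
CPM of the 9 genes in each library on a log axis, with TMM scaling; circles are replicate 1, squares replicate 2, and black lines the group means. For every gene the 2 KO points lie below the 2 Ctrl points, with the widest gap between KO replicates for Ada (13.2 and 6.50 CPM).

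Rrm1 and Rrm2 encode the large and small subunits of ribonucleotide reductase, the enzyme that makes deoxynucleotides from ribonucleotides. Rrm1 (chr7:102441695-102469771, plus strand, mm10) was at 313 and 272 CPM in Ctrl and 179 and 161 CPM in KO. The KO values were 1.72-fold lower, and the gap between the groups was wider than either pair of replicates. The log2 fold change was -0.78 (SE 0.15, edgeR adjusted p = 0.0137). Gm45399 overlaps Rrm1 on the same strand.

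Rrm2 (chr12:24708241-24714146, plus strand) was at 89.5 and 81.0 CPM in Ctrl and 53.2 and 50.4 CPM in KO. Its log2 fold change of -0.72 (SE 0.17, edgeR adjusted p = 0.0338) was within 1 SE of that of its partner subunit. The KO replicates of Rrm2 lay close together, with an SD of 1.99 CPM. Rrm2b, the small subunit that serves outside S phase and after DNA damage, was looked at after its values were seen: it was at 37.0 and 44.2 CPM in Ctrl and 50.6 and 42.6 CPM in KO, with groups that overlapped (0.20 on the log2 scale, 95% interval -0.26 to 0.66, edgeR adjusted p = 0.591).

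Tyms encodes thymidylate synthase, which makes the thymidine nucleotide from the uridine nucleotide and is the target of fluorouracil. It had the lowest log2 fold change of the S-phase members. Tyms (chr5:30058202-30073617, minus strand) was at 166 and 128 CPM in Ctrl and 85.7 and 66.9 CPM in KO. The higher KO library thus stayed under the lower Ctrl library by more than the KO replicates differed. The log2 fold change was -0.95 (SE 0.19, edgeR adjusted p = 0.0157), a 1.93-fold lower level. The pseudogene Tyms-ps had 0 or 1 counts per library, so few reads were assigned to that copy.

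Dut encodes the dUTPase, which removes dUTP before it can enter DNA and supplies the substrate of Tyms. Dut (chr2:125247190-125258608, plus strand) was at 184 and 141 CPM in Ctrl and 94.9 and 81.3 CPM in KO. Like Tyms, it was higher in Ctrl replicate 1 than in Ctrl replicate 2, and the 2 genes had similar log2 fold changes (-0.88 for Dut, SE 0.18, edgeR adjusted p = 0.0164).

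Tk1 encodes the cytosolic thymidine kinase, the salvage route to the same nucleotide that Tyms makes. Tk1 (chr11:117815526-117826092, minus strand) was at 59.6 and 69.9 CPM in Ctrl and 46.0 and 47.1 CPM in KO. It differed from the 4 other S-phase members in the order of its controls, with Ctrl replicate 2 the higher one. Its log2 fold change was -0.48 (SE 0.19, 95% interval -0.89 to -0.07, edgeR adjusted p = 0.141). That interval contains the value of Rrm1, and the difference between Tk1 and the others was not tested. Afmid and Gm20708, on the opposite strand, overlap Tk1, and without a stated strand setting reads of the overlap cannot be told apart.

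Ada encodes adenosine deaminase, which clears adenosine and deoxyadenosine and whose loss causes severe combined immunodeficiency. It had the lowest log2 fold change of the 9 genes and the fewest reads. Ada (chr2:163726584-163750239, minus strand) had 797 and 529 counts in Ctrl and 291 and 128 in KO, or 28.6 and 21.3 CPM against 13.2 and 6.50 CPM. Both KO values lay below both controls, but the KO libraries differed from each other by a larger ratio than in any other of the 9 genes. The log2 fold change was -1.34 (SE 0.36, 95% interval -2.12 to -0.56, edgeR adjusted p = 0.0461).

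Impdh2 encodes IMP dehydrogenase, the rate-limiting step towards guanine nucleotides and the target of mycophenolate. Impdh2 (chr9:108560286-108565584, plus strand) was at 126 and 114 CPM in Ctrl and 76.2 and 86.4 CPM in KO, and was the constitutive member with the smallest SE (log2 fold change -0.57, SE 0.16, edgeR adjusted p = 0.0626). Ndufaf3 overlaps it on the opposite strand. Of the 9 genes, Tk1 and Impdh2 alone were higher in KO replicate 2 than in KO replicate 1.

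Cad and Umps catalyse the first and the last steps of de novo pyrimidine synthesis. Cad (chr5:31054780-31078479, plus strand) was at 116 and 77.7 CPM in Ctrl and 74.1 and 55.3 CPM in KO. Its lower control and higher KO library lay close together, and the log2 fold change was -0.58 (SE 0.22, edgeR adjusted p = 0.132). Umps (chr16:33954782-33967038, minus strand; overlapped by the antisense gene Gm15829) was at 120 and 89.0 CPM in Ctrl and 74.8 and 66.7 CPM in KO (change on the log2 scale -0.57, SE 0.19, edgeR adjusted p = 0.0925). The 95% intervals of Impdh2, Cad and Umps were -0.93 to -0.20, -1.07 to -0.10 and -0.98 to -0.15, so a fall of the size seen in Rrm1 lies inside each of them.

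**Figure D2:**
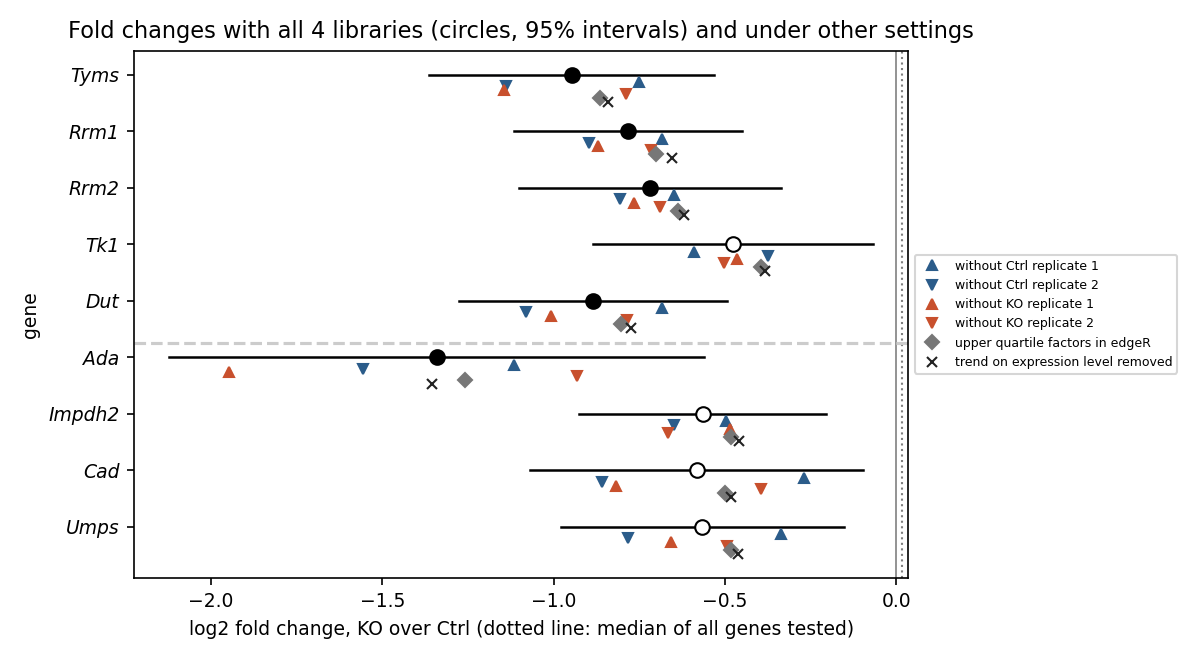
Log2 fold change of KO over Ctrl for the 9 genes with all 4 libraries (circles, filled where the adjusted p is under 0.05, with 95% intervals), and with 1 library left out, upper quartile factors, or the trend on expression level removed. All symbols lie left of 0, and Ada moves the most, from -1.95 without KO replicate 1 to -0.93 without KO replicate 2.

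The calls rested on single libraries. For each of the 9 genes both KO libraries lay below both Ctrl libraries. Leaving a library out could thus hardly change a direction, and the negative signs below are no separate support. Without Ctrl replicate 1 none of the 9 genes passed (edgeR adjusted p from 0.168 for Rrm1 to 0.745 for Cad, with 0.642% of all tested genes called lower; 6 of the 9 had an unadjusted p under 0.05, and DESeq2 called none either), although all 9 log2 fold changes stayed negative, from -1.12 to -0.27. Without Ctrl replicate 2, which leaves the 3 female-like libraries, Tyms and Dut passed (adjusted p = 0.034 and 0.0338) and Rrm1, Rrm2 and Ada missed the threshold (adjusted p = 0.0534, 0.132 and 0.094). Without KO replicate 1, 7 genes passed, Cad and Umps among them (adjusted p = 0.0239 and 0.0428), with 7.88% of all genes called lower. Without KO replicate 2, Ada missed the threshold (adjusted p = 0.11) and Impdh2 passed (adjusted p = 0.032). Rrm2 and Ada also missed it with upper quartile factors (adjusted p = 0.0512 and 0.057) and once a trend of library differences on expression level was taken out (adjusted p = 0.0636 and 0.0593).

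Levels of different genes were compared per kilobase of the longest principal transcript in GENCODE (CPM divided by length in kilobases, RPKM). In Ctrl the order was Dut (83.4 ± 15.7 RPKM), Rrm1 (73.2 ± 7.25), Impdh2 (64.8 ± 4.47), Tyms (46.5 ± 8.55), Tk1 (45.0 ± 5.06), Rrm2 (38.9 ± 2.77), Umps (30.1 ± 6.37), Ada (14.8 ± 3.07) and Cad (13.6 ± 3.79), each mean ± SD with n = 2. The values of neighbours overlapped between Dut and Rrm1, Tyms and Tk1, and Ada and Cad, so the order within these pairs is not resolved. In KO, Tk1 (32.3 ± 0.55 RPKM) ranked above Tyms (24.1 ± 4.21), and Ada (5.82 ± 2.79) and Cad (9.06 ± 1.87) were the lowest, with overlapping values. The order depends on the length used: per kilobase of all annotated exons Tk1 (12.5 ± 1.40 in Ctrl) lay among the lowest members, with values that overlapped those of Ada (12.5 ± 2.59) and Cad (11.8 ± 3.31), while Dut stayed at the top.

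The next comparison was between the S-phase and the constitutive members within each library. The mean log2 CPM of the 5 S-phase members exceeded that of the 4 constitutive members by 0.72 and 0.94 in Ctrl and by 0.74 and 0.94 in KO. The groups overlapped, and the difference between the group means was 0.02, smaller than the replicate SDs of 0.15 in Ctrl and 0.14 in KO. The medians of the log2 fold changes were -0.78 for the S-phase and -0.57 for the constitutive members. No test is given, since 2 libraries per group cannot reach a p under 0.05 by permutation.

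That near-equality rested on Ada. Relative to Ada, the log2 ratio of each S-phase member was higher in KO by 0.46 (Tyms) to 0.94 (Tk1). Relative to Impdh2, Cad and Umps, the KO minus Ctrl difference lay between -0.39 (Tyms over Umps) and 0.10 (Tk1 over Cad). Without Ada, a choice made after its values were seen, the S-phase members exceeded the other 3 by 0.20 and 0.41 in Ctrl and by 0.12 and 0.10 in KO. The groups then did not overlap, and the difference between the means was -0.20 with replicate SDs of 0.15 and 0.01. The controls differed from each other by about as much as the group means did. Separation of this kind was common for single genes: 27.6% of all tested genes had both KO libraries below both Ctrl libraries, and 28.8% had both above.

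Other genes of nucleotide metabolism were taken from lists by role, with none of the 9 among them. Of 77 tested genes in these lists 7 were lower, 2 were higher and 68 did not pass, with a median log2 fold change of -0.37. Of the 7 lower genes, 3 were in the deoxynucleotide list and 3 in the list of de novo purine synthesis. Over all 14140 tested genes, edgeR called 3.01% lower and 3.77% higher, and DESeq2 called 792 lower and 878 higher.

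In the deoxynucleotide list 3 of 16 genes were lower and 13 did not pass (median -0.43). Dctpp1, a pyrophosphatase that clears modified dCTP, was at 61.0 and 49.5 CPM in Ctrl and 30.7 and 26.8 CPM in KO (change on the log2 scale -0.94, edgeR adjusted p = 0.0258). Dck, the kinase that salvages deoxycytidine and activates cytarabine, fell by 0.69 on the log2 scale (adjusted p = 0.037). Dctd, the deaminase that turns dCMP into dUMP for Tyms, fell by 0.91 (adjusted p = 0.0485). All 3 missed the threshold when either control library was left out. Dck and Dctd also missed it with upper quartile factors (adjusted p = 0.0562 and 0.0659) and with the expression trend taken out (adjusted p = 0.0805 and 0.0745), and Dctd with DESeq2 size factors (adjusted p = 0.0503) and without KO replicate 2 (adjusted p = 0.128).

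In the list of de novo purine synthesis 11 of 12 genes had a negative fold change, as did 6894 of all 14140 tested genes. Of the 12 genes, 3 were lower, against 3.01% of all tested genes, and 9 did not pass (median -0.59). Paics, which catalyses a pair of middle steps of the pathway, was at 1009 and 842 CPM in Ctrl and 630.5 and 543 CPM in KO (-0.66 on the log2 scale, SE 0.15, edgeR adjusted p = 0.0257). Ppat, the committed step, fell by 0.77 on the log2 scale (adjusted p = 0.0321), and Prps2, which makes the activated ribose that both purine and pyrimidine synthesis need, fell by 0.75 (adjusted p = 0.0264). Prps2 lies on the X chromosome, and its value in the male-like library, 140 CPM, was below the 165 CPM of the other control. These 3 genes also missed the threshold when either control library was left out (adjusted p from 0.0571 to 0.331) or the expression trend was taken out (adjusted p from 0.0501 to 0.062), and Ppat also without KO replicate 2 (adjusted p = 0.0517).

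No gene passed among the 4 of de novo pyrimidine synthesis outside the members in edgeR (median -0.44); 1 had an unadjusted p under 0.05, and DESeq2 called 1. Ctps, which makes CTP from UTP, had the smallest p there: 35.0 and 32.0 CPM in Ctrl and 20.1 and 9.40 CPM in KO (change on the log2 scale -1.18, SE 0.33, edgeR adjusted p = 0.0567). Its X-linked paralog Ctps2, looked at after its values were seen, was at 114 and 103 CPM in Ctrl and 107 and 107 CPM in KO (change on the log2 scale -0.02, 95% interval -0.37 to 0.32).

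Of 19 tested genes of purine salvage and breakdown, 17 did not pass (median -0.18). The 1 lower and 1 higher gene compare with 3.01% and 3.77% of all tested genes. The lower one was Hprt, which salvages hypoxanthine and guanine, at 139 and 135 CPM in Ctrl and 90.0 and 81.8 CPM in KO (change on the log2 scale -0.67, edgeR adjusted p = 0.03); it is X-linked, its 2 control values were close, and it missed the threshold when either control library was left out or the expression trend was taken out (adjusted p from 0.0616 to 0.249). The higher one was Gda, which breaks down guanine, at 8.19 and 13.5 CPM in Ctrl and 32.6 and 29.2 CPM in KO (change on the log2 scale 1.51, adjusted p = 0.0154; 0.15 without Ctrl replicate 1).

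Of 5 nucleoside transporter genes, Slc28a2, a concentrative carrier of purine nucleosides, rose from 8.91 and 7.97 CPM in Ctrl to 32.0 and 53.6 CPM in KO. This was a 5.06-fold higher level (log2 fold change 2.34, SE 0.30, edgeR adjusted p = 0.0014), and it passed in all 12 other settings run. None of the 7 tested genes of pyrimidine salvage and breakdown passed in edgeR (median 0.49); 2 had an unadjusted p under 0.05, and DESeq2 called 1. Upp1, uridine phosphorylase, had the smallest p there and was high in 1 library, KO replicate 2, at 17.9 CPM against 4.70 CPM in KO replicate 1 and 2.69 and 2.62 CPM in Ctrl (adjusted p = 0.0508). None of 14 folate pathway genes passed in edgeR (median -0.37; 2 with an unadjusted p under 0.05 and 1 called by DESeq2), with the smallest p for Shmt2, the mitochondrial serine hydroxymethyltransferase (log2 fold change -0.76, adjusted p = 0.082).

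**Figure D3:**
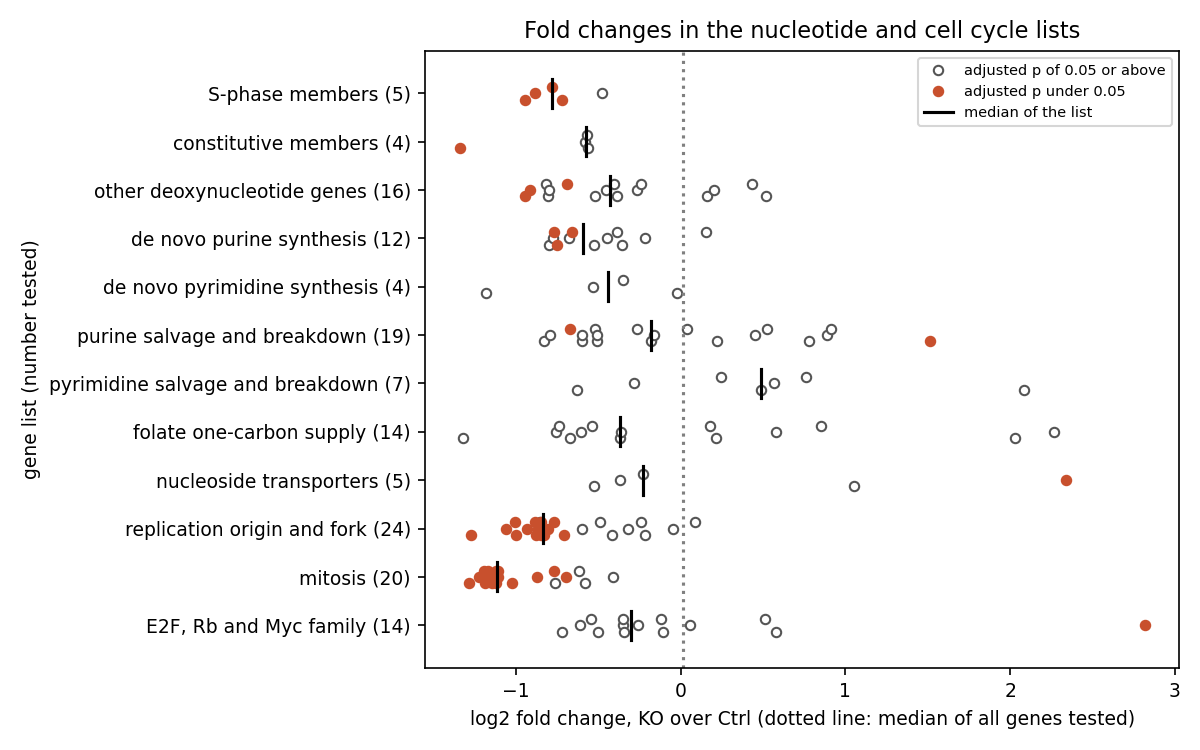
Log2 fold change of KO over Ctrl for every tested gene of each list, filled where the adjusted p is under 0.05, with the list median as a black line and the median of all tested genes as a dotted line. The S-phase members (median -0.78) lie near the replication genes (-0.84), and the salvage, folate and transporter lists spread to both sides.

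Genes of the cell cycle were set beside the S-phase members, with 3.01% of all tested genes called lower and 3.77% higher. These lists too were chosen with earlier results of these data known, so their counts are a description. Among 24 replication origin and fork genes 14 fell and none rose (median -0.84). Pcna, the sliding clamp, fell by 1.01 on the log2 scale (edgeR adjusted p = 0.00301) and DNA ligase Lig1 by 1.06 (adjusted p = 0.00467). The polymerase and primase genes Pola1 and Prim1 fell by 0.81 and 0.85 (adjusted p = 0.0155 and 0.0161). Pola1 lies on the X chromosome, and its value in the male-like library, 153 CPM, was below the 184 CPM of the other control. Among 20 mitosis genes 16 fell and none rose (median -1.12); Ccnb2, a mitotic cyclin, was at 115 and 107 CPM in Ctrl and 41.0 and 50.4 CPM in KO (adjusted p = 0.0027), with similar falls for Top2a, Bub1b and Tpx2 (log2 fold changes -1.12, -1.14 and -1.18). Without Ctrl replicate 1 the lower genes numbered 2 of the fork and 8 of the mitosis list, and without Ctrl replicate 2 they numbered 3 and 9.

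None of the 14 genes of the E2F, Rb and Myc families was lower past the threshold in edgeR (median -0.30). An unadjusted p under 0.05 was found for 3 lower and 2 higher genes, and DESeq2 called 2 of 14 lower and 2 higher. Mycl was higher, at 0.718 and 0.443 CPM in Ctrl and 4.97 and 3.30 CPM in KO (change on the log2 scale 2.82, edgeR adjusted p = 0.0387), and it missed the threshold when either control library or KO replicate 1 was left out (adjusted p from 0.107 to 0.196) or the expression trend was taken out (adjusted p = 0.0962).

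**Figure D4:**
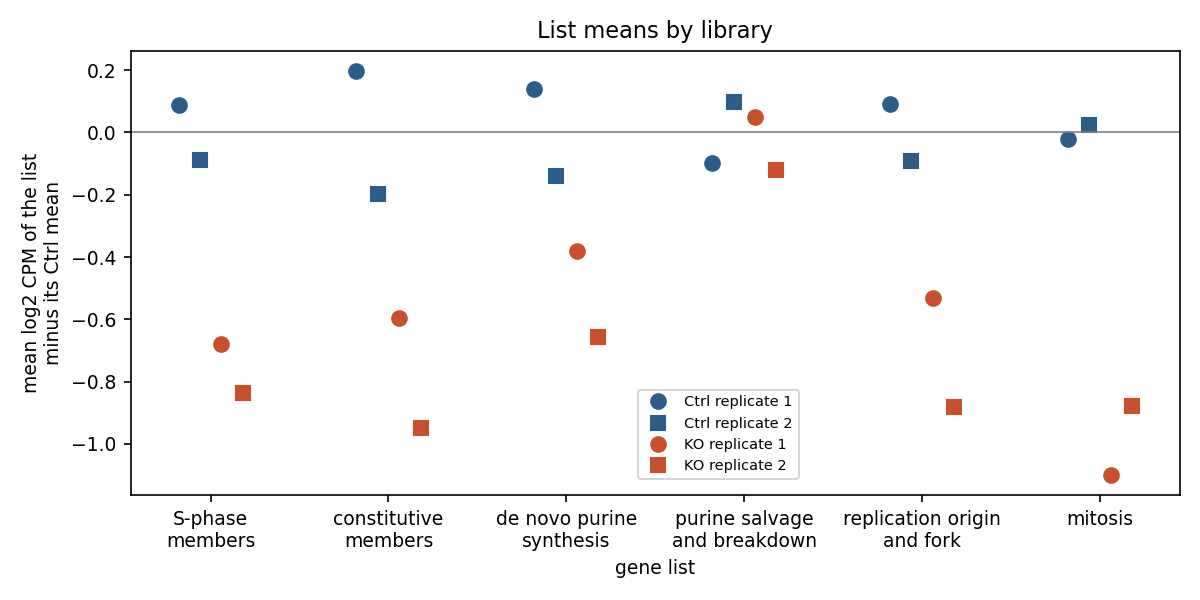
Mean log2 CPM of 6 lists in each library, relative to the Ctrl mean of the list; circles are replicate 1 and squares replicate 2. KO replicate 2 was the lower KO library for both groups of members, for purine synthesis and for the fork genes, and the higher one for the mitosis genes.

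The genes whose pattern over the 4 libraries was closest to the mean of the S-phase members, among 9205 genes with a mean of at least 10 CPM, were Smc6, Arhgap19, Wbp5, Npm1 and Erh. Their centred log2 CPM differed from that mean by a root mean square of 0.021 to 0.028. Their log2 fold changes ran from -0.75 (Erh) to -0.71 (Npm1), and the adjusted p was under 0.05 for all but Wbp5 (adjusted p = 0.085). These genes were picked for this pattern, so fold changes near that of the S-phase members follow from the choice and are no separate result. With 4 libraries many genes can share a pattern.

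Markers of other cell types in the sort moved between the same groups, where 3.01% of all tested genes were called lower and 3.77% higher. Of 10 B lineage markers 9 were lower, with a summed level of 503 to 590 CPM in Ctrl and 83.9 to 115 CPM in KO. Of 9 dendritic cell markers 6 were higher (136 CPM in both Ctrl libraries, 857 to 1044 CPM in KO), of 8 mast cell and basophil markers 6 (17.3 to 21.5 and 118 to 190 CPM), of 7 tested neutrophil markers 5 (344 to 496 and 732 to 954 CPM) and of 7 monocyte markers 3 (141 to 147 and 238 to 270 CPM). In edgeR no marker passed among 5 tested erythroblast genes (4 with an unadjusted p under 0.05, 2 called by DESeq2), whose list summed to 18.8 to 71.0 CPM in Ctrl and 93.3 to 135 CPM in KO with Hbb-bt, Hbb-bs and Hba-a1 at or under 3 counts, or among 5 tested T and NK cell genes (90.2 to 104 and 57.1 to 73.0 CPM, with Ncr1 at or under 3 counts; 2 with an unadjusted p under 0.05, 2 called by DESeq2). Of 9 genes of the LSK gate and its subsets, Cd34 alone passed, at 499 and 496 CPM in Ctrl and 369 and 282 CPM in KO (edgeR adjusted p = 0.0408). In these bulk samples fewer cells of a type and less RNA per cell cannot be told apart, and the part of cell makeup in the lower levels of the 9 enzymes was not tested.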

How the data were processed

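RNA was sequenced from 2 Ctrl and 2 KO pools of sorted LSK cells. Each library started from 20 ng of RNA (NuGEN Ovation Ultralow kit) and was read for 76 cycles, per the labels' protocols. The authors deposited raw read counts per gene symbol; per the submitters' processing notes these were made on build mm10, and HTSeq 0.8.0, Picard 2.9.4, SAMtools 1.5 and TopHat2 2.1.1 are named. For annotation, strand setting and treatment of duplicates the answer is: not given in the sources used here.

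The count test was that of edgeR 4.0.16, run in R 4.3.3 (library factors by TMM, filterByExpr with minimum count 10 and minimum total count 15, quasi-likelihood test of KO against Ctrl, no covariate, Benjamini-Hochberg adjustment over 14140 genes, threshold 0.05). CPM are TMM-scaled; means of log2 CPM used a prior count of 2. Totals lay between 17787425 and 29863594 counts, and a floor of 3 counts is 0.100 to 0.169 CPM, for counting error only. Positions and lengths came from GENCODE M21 (GRCm38, the mm10 assembly), promoters from RefSeq. On simulated counts for this comparison, with 13882 genes in the step, edgeR called 42 of the 100 genes given a 2-fold change, 78 of the 100 given a 4-fold change, and 6 unchanged genes.

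The members and lists were chosen with earlier results of these data known. Genes named outside the members are, per list, up to 4 past the threshold with the smallest p, or the 1 with the smallest p where none passed; the closest patterns follow a fixed rule, and others are stated as chosen after their values were seen, as were all cell type markers named singly. Alternatives were other factors, filters and tests (DESeq2 1.42.0), Rn45s removed, each library left out, a replicate block and, added after seeing the data, removal of the trend on expression level with cyclic loess (limma 3.58.1).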

Additional observations from a re-analysis of the deposited data

How the results depend on the processing

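All 108 values of the 9 genes under the 12 alternatives were negative. The alternatives reuse the same libraries, in which both KO values of each gene lay below both Ctrl values, so the shared sign is no separate support. Tk1 passed in none of the alternatives. With 1 library left out, a lone sample is assumed to vary like the other group. Counts of calls moved more than fold changes did, and the cause was not tested. The share of all tested genes called lower was 3.01% with the settings used above and 2.04% with upper quartile factors. It was 1.84% with the trend removed, 5.6% with the DESeq2 Wald test, 5.59% with no filter and 9.29% with the replicate block. Genes called numbered 958 (55.6% higher), 1670 with the DESeq2 Wald test, 2043 with no filter, 2626 with the replicate block and 255 to 2158 with 1 library left out; with upper quartile factors 69.7% of calls were higher. Members called lower numbered 5, and 3 with upper quartile factors or the expression trend removed, 8 with no filter or the replicate block, and 0 to 7 with 1 library left out.

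Lower calls in the lists ran as follows. Other deoxynucleotide genes: 1 with upper quartile factors or the trend removed, 5 with DESeq2, 6 with the replicate block, 0 to 5 with 1 library left out. De novo purine: 6 with DESeq2, 7 with no filter, 8 with the block, 0 with the trend removed, 0 to 7 with 1 library left out. De novo pyrimidine: 1 with DESeq2, no filter or the block, 0 to 2 with 1 library left out. Purine salvage: 2 with DESeq2, 3 with no filter, 5 with the block, 0 with the trend removed, 0 to 4 with 1 library left out. Pyrimidine salvage: 1 with no filter or the block, 0 to 1 with 1 library left out. Folate: 1 with DESeq2, 2 with no filter, 3 with the block, 0 to 3 with 1 library left out. Fork: 7 with the trend removed, 2 to 19 with 1 library left out. Mitosis: 8 to 17 with 1 library left out. E2F, Rb and Myc: 2 with DESeq2 or no filter, 4 with the block, 0 to 6 with 1 library left out.

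With 1 library left out, the medians ran from -0.90 to -0.68 for S-phase and -0.82 to -0.42 for constitutive members, -0.55 to -0.34 for other deoxynucleotide genes, -0.74 to -0.46 for de novo purine, -0.78 to -0.18 for de novo pyrimidine, -0.40 to -0.20 for purine salvage, 0.36 to 0.66 for pyrimidine salvage, -0.52 to -0.23 for folate, -0.28 to -0.043 for transporters, -0.88 to -0.66 for fork, -1.20 to -0.94 for mitosis and -0.43 to -0.024 for E2F, Rb and Myc genes. With the trend removed the S-phase median was -0.65 and the mitosis median -0.99.

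The difference of the S-phase and constitutive members was -0.19 with members weighted by reads, -0.20 without Ada, and -0.09 to 0.12 with 1 library left out; the DESeq2 test gives no value for it and was not run there. The replicate numbers carry no stated pairing. The deviations of same-numbered libraries correlated at 0.076 over genes. That value covers all tested genes together and cannot show whether same-numbered samples were handled together, so the replicate block is given for completeness. Under it Impdh2, Cad and Umps passed (edgeR adjusted p = 0.00573, 0.00853 and 0.00897).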
